A study of Mus musculus with 4 samples.

Results

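A set of 10 genes of the cytosolic heat shock protein and co-chaperone system was followed in mouse bone marrow-derived mast cells: Hspa1a, Hspa1b, Hspa8, Hsph1, Dnaja1, Dnajb1, Hsp90aa1, Hsp90ab1, Cdc37 and Hspb1. They were chosen by name, as every probe set of the Affymetrix 430A array whose single gene symbol in the platform annotation was one of the 10. Of the 10 genes, 9 had such a probe set, out of 12393 genes with 1 on the array, and Hsp90ab1 was not analysed here. The 9 genes had 21 probe sets in all.

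The cells were Pac1-/-, lacking the dual-specificity MAP kinase phosphatase Pac1 that Dusp2 encodes, or wild-type (Pac1+/+), with 2 cultures of each genotype and 1 array per culture. Both genotypes were grown from marrow of mice aged 8 to 12 weeks for 4 to 6 weeks in interleukin-3 at 5 ng/ml, loaded with 100 ng/ml anti-DNP IgE for 18 h and exposed to 20 ng/ml DNP-HSA for 2 h. The labels give no strain, do not say whether marrow was pooled, and include no unstimulated culture, so every level belongs to activated cells and no value here is a change upon activation. The study asked how loss of Pac1 alters the transcripts of activated mast cells.

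Hsp70 proteins bind unfolded stretches of other proteins and release them in a cycle driven by ATP; J-proteins deliver the substrate and start the cycle, and Hsp110 proteins exchange the nucleotide. Hsp90 takes over partly folded clients, among them many protein kinases, which the co-chaperone Cdc37 brings to it. Small heat shock proteins hold unfolding proteins without ATP, and heat shock factor 1 switches on many of these genes together when unfolded protein accumulates.

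No probe set of these genes passed the test for a difference between the genotypes, and their widest gaps separated cultures with different replicate numbers. The stress-inducible Hsp70 gene Hspa1b was bright in both cultures numbered 1 and near or below the floor in both cultures numbered 2, whatever the genotype. The Hsp90 co-chaperone gene Cdc37 read lower on both Pac1-/- arrays than on both wild-type arrays by 1 of its 2 probe sets, but only past the unadjusted test. The brightest probe sets of Hspa8, Dnaja1 and Hsp90aa1, which read above 500 on every array, differed between the genotypes by 0.06 to 0.43 on the log2 scale, none past the test. Of the 15 probe sets with a mean normalised intensity of at least 100, which alone were tested, 0 had an adjusted p under 0.05 (limma with Benjamini-Hochberg adjustment over 7770 probe sets), as had 0 of all 7770, so the background is 0%. At an unadjusted p under 0.05 there was 1 of the 15, against 3.38% of all tested probe sets, or 263. By direction, 2.25% of all were past it with higher and 1.13% with lower signal in Pac1-/- cells, so that 66.5% of the 263 were higher. That share was 54.2% on the values as deposited and 92.7% with each array centred on its median, but 36.5% with the replicate number as a block. The share thus depended on the setting. Each setting passed a different set of probe sets, so these shares do not follow the direction of any 1 probe set. The block left every log2 difference as it was, so its lower share came from which probe sets passed.

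The targeted gene, Dusp2, read 109.3 and 75.5 in Pac1-/- replicates 1 and 2 and 167.2 and 90.7 in wild-type replicates 1 and 2; the genotypes overlapped, and the labels do not say which part of the gene was deleted, so its probe set does not check the labels. The 4 arrays differed in ways that touch these genes. Arrays with the same replicate number correlated at r = 0.885 (number 1) and 0.75 (number 2) over the tested probe sets (a description across probe sets, which share the array), against 0.468 between the Pac1-/- arrays and 0.437 between the wild-type arrays. The Y-linked gene Eif2s3y read 274.8 and 2.1 in Pac1-/- replicates 1 and 2 and 219.1 and 1.0 in wild-type replicates 1 and 2, and Xist, transcribed from the inactive X chromosome, read 41.7 and 984.3 in Pac1-/- cells and 47.7 and 2952.4 in wild-type cells, so the replicate numbers also separated the cultures by sex-linked genes. The ratio of 3' to 5' signal for Gapdh, a sign of RNA or amplification quality, was 1.36 and 191 on Pac1-/- replicates 1 and 2, against 0.798 and 0.839 on the wild-type arrays. For beta-actin it was 293 and 54.8 on the Pac1-/- arrays, against 109 and 1.58 on the wild-type arrays. Mast cell markers (Kit, Fcer1a, Ms4a2, Cpa3, Cma1, Tpsb2, Hdc and Srgn) reached 100 in 8 of 8 cases on 3 arrays and in 7 of 8 on Pac1-/- replicate 1, where Ms4a2 read 41.9. Their summed normalised intensity was 53913.0 and 42074.1 on the Pac1-/- arrays and 50877.3 and 44407.6 on the wild-type arrays. The sum hides 2 of the genes. Tpsb2 read 6587.7 and 475.8 in Pac1-/- replicates 1 and 2, against 5837.6 and 7259.2 in wild-type replicates 1 and 2. Ms4a2 read 41.9 and 1502.3 in Pac1-/- cells and 142.6 and 3261.1 in wild-type cells. The other mast cell markers varied less between the arrays. Of 5 macrophage markers, 1 on 3 arrays and 2 on wild-type replicate 2 reached 100, of 6 neutrophil markers 1 did on each replicate 2 array and 0 on the others, and no B or T cell, erythroid or stromal marker did on any array. Of 2 basophil markers 1 or 2 reached 100 on every array, with a summed level of 1809.9 and 552.8 on the Pac1-/- arrays and 2118.8 and 3267.7 on the wild-type arrays, most of it from Itga2b, an integrin gene that mast cells can also express. That sum was lower on both Pac1-/- arrays, as Cdc37 1416819_at was, and the part of the sum in the Cdc37 result was not tested. Mcpt8, the other of the 2 markers, did not follow the sum. It read 88.5 and 128.4 in Pac1-/- replicates 1 and 2 and 82.1 and 98.1 in wild-type replicates 1 and 2. For every culture the sample descriptions give at least 98% of cells positive for Kit and FceRI.

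The values below are deposited intensities after quantile normalisation. Before log2 was taken, values below 16 were set to 16, and sizes that rest on readings under 100 are approximate. In bulk RNA, fewer cells with a transcript and less transcript per cell cannot be told apart.

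**Figure D1:**
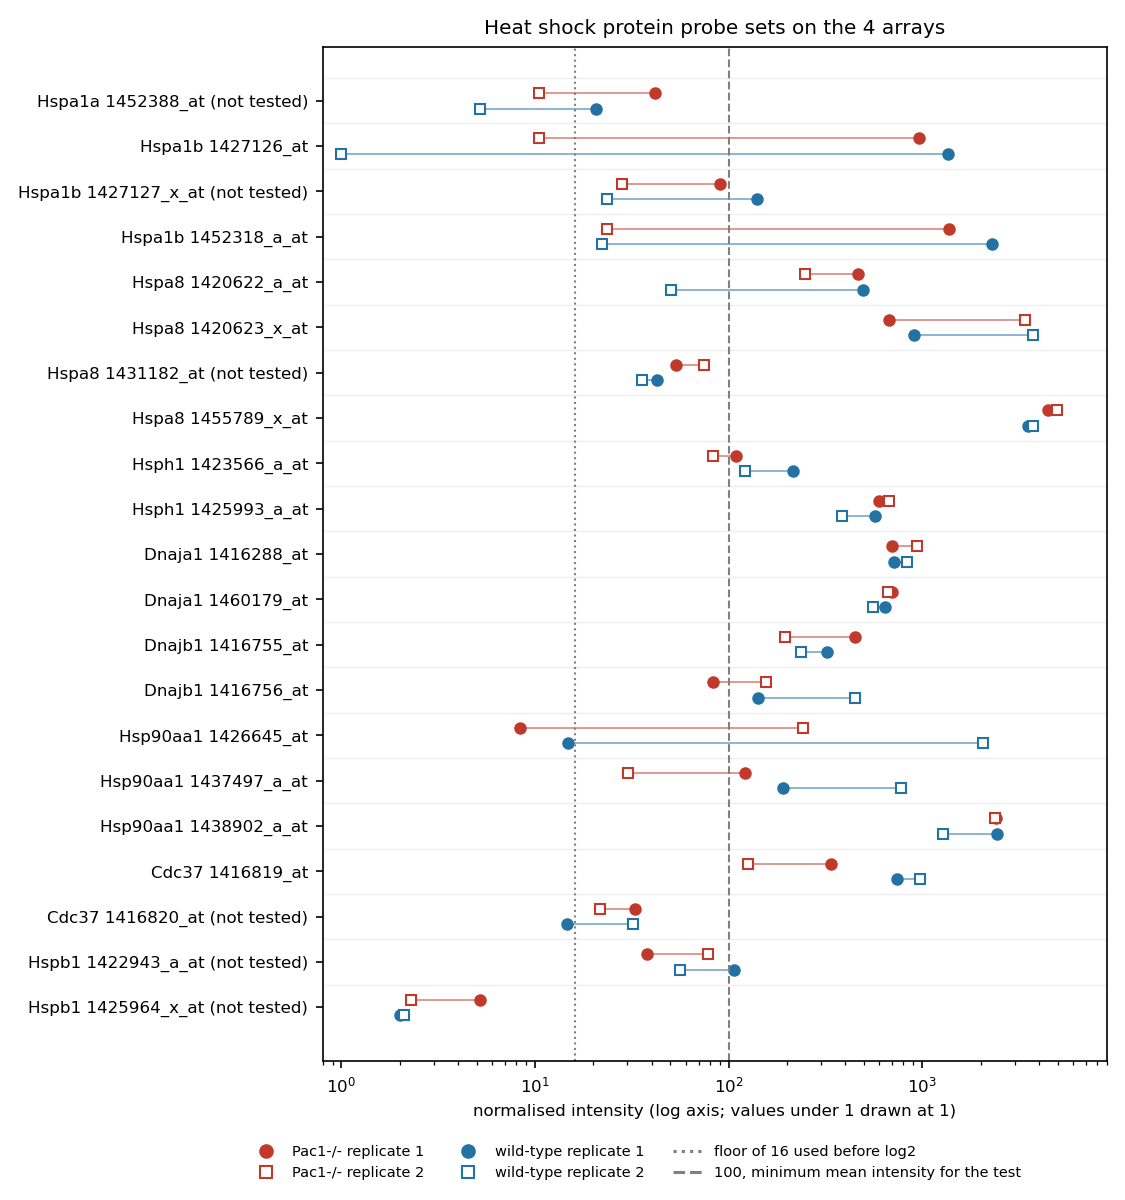
Normalised intensity (log axis) of each of the 21 probe sets on the 4 arrays, with Pac1-/- arrays in red above wild-type arrays in blue, replicate 1 as filled circles and replicate 2 as open squares; each line joins the 2 arrays of a genotype and is no error bar, and values under 1 are drawn at 1. Hspa1b 1452318_a_at read 1381.0 and 23.5 on the Pac1-/- arrays and 2290.3 and 22.1 on the wild-type arrays, while the lines of Dnaja1 and of Hspa8 1455789_x_at are short.

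The inducible Hsp70 genes Hspa1a and Hspa1b encode nearly identical proteins that are scarce in unstressed cells and rise with heat or other protein damage. Hspa1b probe set 1452318_a_at had normalised intensities of 1381.0 and 23.5 in Pac1-/- replicates 1 and 2, and 2290.3 and 22.1 in wild-type replicates 1 and 2. Probe set 1427126_at had 959.0 and 10.5 in Pac1-/- cells, and 1359.1 and 0.9 in wild-type cells. Both read high in the replicate 1 cultures and low in the replicate 2 cultures of both genotypes, so the genotypes overlapped and the replicate numbers did not. The replicate 2 readings of 1452318_a_at lay so close to the floor that the size of its gap is only approximate and cannot be compared between the genotypes. The values of 1452318_a_at as deposited had the same order of the replicate numbers, at 1311.5 and 13.5 in Pac1-/- cells and 2130.0 and 27.1 in wild-type cells. Between the 2 replicate 2 arrays the order of the genotypes was opposite to that after normalisation. The third Hspa1b probe set, 1427127_x_at, was too dim to be tested, with 90.0 and 28.1 in Pac1-/- cells and 140.2 and 23.4 in wild-type cells, and ran the same way.

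Against this spread the genotype difference of Hspa1b was small and imprecise. For 1452318_a_at the log2 difference (Pac1-/- cells less wild-type cells, here and below) came to -0.32 ± 3.29 (limma adjusted p = 0.994; here and below ± is the SE with n = 2 per genotype), and its 95% confidence interval ran over -9.75 to 9.11. Within replicate number 1 the difference was -0.73, and within number 2, where both arrays read close to the floor, 0.09. Probe set 1427126_at gave -0.25 ± 3.22 (limma adjusted p = 0.995) and -0.50 within replicate number 1. Leaving out any 1 array moved the value of 1452318_a_at to between -3.67 (no wild-type replicate 2) and 3.03 (no wild-type replicate 1). In the replicate 1 cultures, where the gene was bright, all 3 Hspa1b probe sets therefore read lower on the Pac1-/- array, with no replicate behind that order.

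Hspa1a had 1 probe set, 1452388_at, which was dim on all arrays, at 41.9 and 10.5 in Pac1-/- cells and 20.6 and 5.2 in wild-type cells. It was not tested. Both replicate 1 arrays again lay above both replicate 2 arrays. Because the transcripts of Hspa1a and Hspa1b are so alike, the Hspa1b signal may include Hspa1a. Array IDs ending in a_at or x_at mark probes that can bind several transcripts, not always of different genes. The Hspa1b probe set 1427126_at, whose ID has neither ending, also read higher in the replicate 1 cultures.

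The upstream sequences of the pair are given to show how alike they are, beside 1 stretch each of Hsph1, Dnaja1 and Cdc37. Every stretch printed holds a match to a short core of the heat shock element, the sequence that heat shock factor 1 is known to bind. None holds the extended form of 3 units described below. The Hspb1 stretch, with 2 core matches, and a second Hsph1 stretch with the same site are not printed. The other stretches of Dnaja1 and both of Dnajb1, which held no core match, are not printed either. The printed stretches therefore allow no contrast between genes that differed more and less between cultures. Each line holds the 250 bases upstream of a RefSeq gene start (build GRCm38.p6), 5' to 3' in the direction of the gene, with matches to the heat shock element core in capitals. The core was searched as GAANNTTC and TTCNNGAA, where N is any base; each form is its own reverse complement, so both strands are covered, and overlapping matches are shown as 1 run.
Hspa1a, chr17:34972157-34972406, - strand: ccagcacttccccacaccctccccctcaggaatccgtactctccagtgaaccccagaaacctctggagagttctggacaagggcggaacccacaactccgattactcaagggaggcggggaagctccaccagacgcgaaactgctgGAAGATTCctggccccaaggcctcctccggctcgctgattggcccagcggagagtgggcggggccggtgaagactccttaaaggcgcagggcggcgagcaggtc
Hspa1b, chr17:34959239-34959488, - strand: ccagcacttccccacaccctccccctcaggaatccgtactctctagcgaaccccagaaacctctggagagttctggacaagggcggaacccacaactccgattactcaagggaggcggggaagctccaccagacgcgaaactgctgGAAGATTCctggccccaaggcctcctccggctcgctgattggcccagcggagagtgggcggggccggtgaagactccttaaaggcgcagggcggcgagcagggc
Hsph1, chr5:149636316-149636565, - strand: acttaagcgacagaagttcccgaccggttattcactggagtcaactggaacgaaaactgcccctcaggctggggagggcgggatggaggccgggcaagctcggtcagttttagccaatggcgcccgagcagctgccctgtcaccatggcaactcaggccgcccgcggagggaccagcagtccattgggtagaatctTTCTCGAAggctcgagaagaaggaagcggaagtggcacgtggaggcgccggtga
Dnaja1, chr4:40722218-40722467, + strand: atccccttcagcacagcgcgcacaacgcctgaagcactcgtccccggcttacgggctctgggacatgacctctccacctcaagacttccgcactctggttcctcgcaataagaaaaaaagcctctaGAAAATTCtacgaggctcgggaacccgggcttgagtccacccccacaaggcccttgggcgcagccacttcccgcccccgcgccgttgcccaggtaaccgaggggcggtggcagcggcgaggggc
Cdc37, chr9:21149935-21150184, - strand: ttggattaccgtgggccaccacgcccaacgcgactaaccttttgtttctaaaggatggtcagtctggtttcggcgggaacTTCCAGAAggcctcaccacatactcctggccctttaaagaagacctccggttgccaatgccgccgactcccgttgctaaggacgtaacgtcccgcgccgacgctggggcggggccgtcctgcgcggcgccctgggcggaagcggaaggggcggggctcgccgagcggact
The stretches of Hspa1a and Hspa1b differed at 3 of 250 bases (98.8% identical), and both held GAAGATTC ending 96 bases before the gene start. The table had upstream stretches for 7 of the 10 genes, 11 in all, and 7 of the 11 held a core match, against 12.8% of 32841 stretches of all genes. The 7 are not independent, since both Hsph1 stretches overlap and hold the same site, and those of Hspa1a and Hspa1b are nearly identical. The 6 genes with a match were Hspa1a, Hspa1b, Hspb1, Hsph1, Cdc37 and 1 of 3 starts of Dnaja1, and neither of the 2 starts of Dnajb1 had one in this window. The second Dnajb1 stretch (chr8:83608298-83608547, + strand) lies downstream of the first start, so it is transcribed sequence for that start. An extended match of 3 units (GAA and TTC in alternation, starting with either, with any 2 bases between units) was in 0 of the 11, against 0.466% of all. A match in letters is a description of the sequence and not a binding site.

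Hspa8 encodes Hsc70, the Hsp70 that cells make all the time. Its brightest probe set, 1455789_x_at, had 4453.7 and 4939.3 in Pac1-/- cells, and 3516.3 and 3725.7 in wild-type cells. Both Pac1-/- arrays lay above both wild-type arrays, and the replicate numbers differed little. The log2 difference was 0.37 ± 0.35 (limma adjusted p = 0.875; 95% confidence interval -0.62 to 1.37). It came to 0.34 within replicate number 1 and 0.41 within number 2.

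The other Hspa8 probe sets differed among themselves. Probe set 1420623_x_at read 675.6 and 3406.0 in Pac1-/- cells and 902.0 and 3721.8 in wild-type cells, higher in the replicate 2 cultures of both genotypes. Its log2 difference was -0.27 ± 1.19 (adjusted p = 0.987) but 0.53 with each array centred on its median. Probe set 1420622_a_at read 465.9 and 246.7 in Pac1-/- cells and 492.1 and 50.1 in wild-type cells, higher in the replicate 1 cultures. Its log2 difference of 1.11 ± 1.30 (adjusted p = 0.888) came from replicate number 2, at 2.30, against -0.08 within number 1, and it was -0.54 without wild-type replicate 2. The fourth, 1431182_at, was too dim to be tested, at 53.5 and 74.6 in Pac1-/- cells and 42.6 and 35.5 in wild-type cells, with the genotypes in the same order as in 1455789_x_at. The 3 tested probe sets of Hspa8 thus differed in sign between the genotypes and in order between the replicate numbers.

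Hsph1 encodes Hsp105, an Hsp110 protein that helps Hsp70 exchange its nucleotide. Probe set 1425993_a_at read 597.7 and 675.9 in Pac1-/- cells and 570.9 and 384.6 in wild-type cells, with a log2 difference of 0.44 ± 0.40 (adjusted p = 0.875). Probe set 1423566_a_at read 108.8 and 82.9 in Pac1-/- cells and 215.4 and 121.5 in wild-type cells, with a log2 difference of -0.77 ± 0.48 (adjusted p = 0.866). In each probe set the genotypes did not overlap, but the order was opposite.

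Dnaja1 and Dnajb1 encode J-proteins of Hsp70, and Dnajb1 is itself strongly heat-inducible. Dnaja1 read between 556.2 and 934.9 over both its probe sets and all 4 arrays. Its 1460179_at read 696.2 and 667.6 in Pac1-/- cells and 640.9 and 556.2 in wild-type cells, and its 1416288_at read 697.3 and 934.9 in Pac1-/- cells and 711.5 and 838.2 in wild-type cells. The log2 differences were 0.19 ± 0.35 (95% confidence interval -0.81 to 1.19; adjusted p = 0.937) and 0.06 ± 0.38 (-1.04 to 1.16; adjusted p = 0.992). The intervals include a difference of 1 log2 unit or more either way for the second probe set, so they do not show that the genotypes were alike.

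Dnajb1 was less uniform. Probe set 1416755_at read 448.8 and 194.4 in Pac1-/- cells and 323.7 and 235.9 in wild-type cells, higher in the replicate 1 cultures as Hspa1b was, by 2.31-fold in Pac1-/- cells and 1.37-fold in wild-type cells. Probe set 1416756_at ran the other way, at 83.4 and 155.8 in Pac1-/- cells and 141.6 and 450.9 in wild-type cells. Within each replicate number 1416756_at was lower on the Pac1-/- array, at -0.76 and -1.53 on the log2 scale, giving -1.15 ± 0.78 (adjusted p = 0.866). The other probe set was at 0.47 and -0.28, giving 0.10 ± 0.58 (adjusted p = 0.992).

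**Figure D2:**
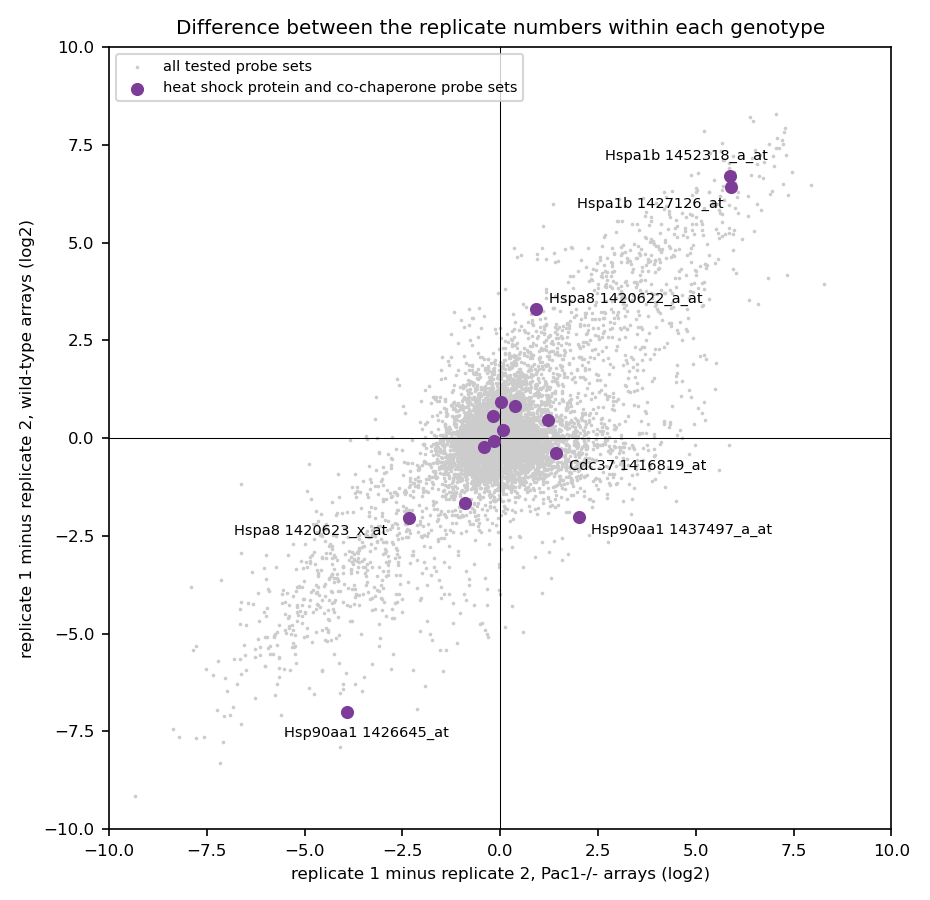
Log2 difference between the replicate numbers (replicate 1 minus replicate 2) in Pac1-/- cells on the horizontal axis and in wild-type cells on the vertical axis, for all 7770 tested probe sets in grey and the 15 tested heat shock protein and co-chaperone probe sets in purple. The 2 Hspa1b probe sets lie far to the upper right (5.91 and 6.41 for 1427126_at), Hsp90aa1 1426645_at lies to the lower left (-3.93 and -7.01), and the rest lie closer to 0.

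Across the tested probe sets of these genes, 9 of 15 separated the replicate numbers without overlap, 5 with replicate 1 higher and 4 with replicate 2 higher, against 41.4% of all 7770 (18.5% and 22.9% by direction). With a gap of over 2 log2 units the same way in both genotypes there were 4 of 15, against 11.4% of all. The 4 were both tested Hspa1b probe sets, Hspa8 1420623_x_at and Hsp90aa1 1426645_at. A gap of over 4 log2 units with replicate 1 higher was shown by 2 of 15, both of Hspa1b and so not independent, against 2.12% of all. These shares are descriptions of 2 cultures per replicate number, and the part of the sex-linked difference in them was not tested.

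Hsp90aa1 encodes the inducible Hsp90 alpha, a relative of the more constant Hsp90 beta. Its brightest probe set, 1438902_a_at, read 2401.4 and 2372.8 in Pac1-/- cells and 2443.3 and 1278.8 in wild-type cells. Of the 4 arrays only wild-type replicate 2 read apart, and the log2 difference of 0.43 ± 0.48 (adjusted p = 0.881) was -0.03 without it. Probe set 1437497_a_at read 121.9 and 30.2 in Pac1-/- cells and 191.6 and 777.0 in wild-type cells. Both Pac1-/- arrays lay below both wild-type arrays, with a log2 difference of -2.67 ± 1.10 (95% confidence interval -5.83 to 0.49; adjusted p = 0.866; unadjusted p = 0.0776). Within replicate number 1 it was -0.65, and within number 2 it was -4.69. Probe set 1426645_at read 8.4 and 243.3 in Pac1-/- cells and 14.8 and 2062.5 in wild-type cells. It was at the floor on both replicate 1 arrays, and its difference of -1.54 ± 2.97 (adjusted p = 0.944) rests on replicate number 2 alone (-3.08). For 1437497_a_at the size of the difference, -2.67 with all 4 arrays, rested on both replicate 2 arrays. The difference was -1.66 without Pac1-/- replicate 2, the array with a Gapdh 3' to 5' ratio of 191, and also -1.66 without wild-type replicate 2. For 1426645_at it was -3.51 without Pac1-/- replicate 2, 1.96 when wild-type replicate 2 was left out, and 0.42 when Pac1-/- replicate 1 was. The part of the Gapdh ratio in these values was not tested.

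Cdc37 encodes the co-chaperone that hands protein kinases to Hsp90. Probe set 1416819_at read 338.3 and 125.4 in Pac1-/- cells, and 741.7 and 970.1 in wild-type cells. Both Pac1-/- arrays lay below both wild-type arrays, and all 4 arrays read above 100. The log2 difference was -2.04 ± 0.64, with a 95% confidence interval of -3.88 to -0.20 (limma unadjusted p = 0.0374, adjusted p = 0.866). It was the 1 probe set of the 15 past the unadjusted test, in the direction that 1.13% of all tested probe sets shared. The difference was -1.13 within replicate number 1, -2.95 within number 2, and -1.33 without Pac1-/- replicate 2, the array with the high Gapdh ratio, where the unadjusted p was 0.0881. The part of that ratio in it was not tested. The limma unadjusted p was likewise above 0.05 with wild-type replicate 1 left out, at 0.102, with wild-type replicate 2 left out, at 0.147, and with no intensity minimum, at 0.0713. The unadjusted p was 0.054 on the values as deposited and 0.078 with median centring, where the difference was -1.50 while the median of all tested probe sets stood at 0.69. The second probe set, 1416820_at, read 33.0 and 21.6 in Pac1-/- cells and 14.7 and 32.0 in wild-type cells and was not tested, so the difference has no second measurement. Where the probes lie along the transcript was not used here.

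**Figure D3:**
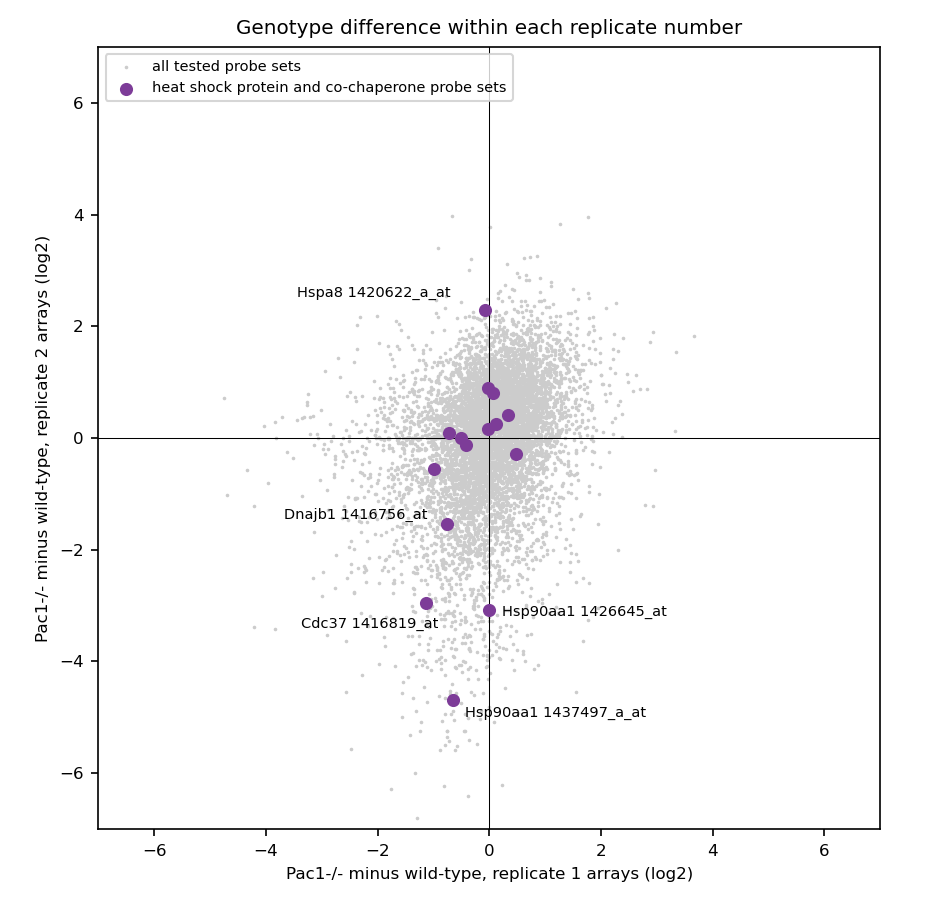
Log2 difference Pac1-/- minus wild-type between the replicate 1 arrays (horizontal axis) and between the replicate 2 arrays (vertical axis), for all 7770 tested probe sets in grey and the 15 tested heat shock protein and co-chaperone probe sets in purple. Cdc37 1416819_at (-1.13 and -2.95) and Hsp90aa1 1437497_a_at (-0.65 and -4.69) are below 0 on both axes, farther on the replicate 2 axis than on the replicate 1 axis.

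Hspb1 encodes the small heat shock protein Hsp25. Probe set 1422943_a_at read 37.7 and 78.7 in Pac1-/- cells and 107.2 and 56.1 in wild-type cells, and 1425964_x_at read between 2.0 and 5.2 on all arrays. Neither was bright enough to be tested, and the first overlapped between the genotypes.

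Counted gene by gene, with the brightest tested probe set for each, the 7 tested genes had a median log2 difference of 0.10, the same as the 0.10 of all 4998 tested genes. There were 5 above 0 and 2 below, Hspa1b and Cdc37, and the range was -2.04 to 0.44. Of all 4998 tested genes 2802 were above 0 and 2196 below. Over all 15 tested probe sets the median was -0.25, with 8 below 0, against 0.06 over the 7770. In 6 of 15 the genotypes did not overlap, with Pac1-/- above in 3 and below in 3, against 37.7% of all (24.3% higher and 13.4% lower). The sign was the same within both replicate numbers in 8 of 15, or 53.3%, against 61.3% of all. Of 6 genes with more than 1 tested probe set, 4 had probe sets of both signs. The count of probe sets whose genotypes did not overlap was thus close to the background.

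The rest of the cytosolic chaperone machinery was described by 58 further genes in 8 groups, of which 53 were on the array and 40 bright enough to test. Of the 40, the difference was above 0 for 23 and below 0 for 17 (median 0.05). Over all 4998 tested genes 43.9% were below 0, so this split was close to the background. Of the 40, 0 passed limma's adjusted test. There was 1 past the unadjusted test, Unc45a, a co-chaperone of Hsp90 for myosin folding, whose x_at probe set read 435.1 and 196.4 in Pac1-/- cells and 109.9 and 68.6 in wild-type cells (log2 difference 1.75 ± 0.60, unadjusted p = 0.0468, adjusted p = 0.866). The gene's other tested probe set read 175.7 and 88.4 in Pac1-/- cells and 81.0 and 195.6 in wild-type cells, a difference of -0.01, with 1.12 within replicate number 1 and -1.15 within number 2. Among the 10 tested Hsp90 co-chaperones 4 were higher and 6 lower (median -0.14), and Chordc1 was at 0.64 ± 0.40.

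**Figure D4:**
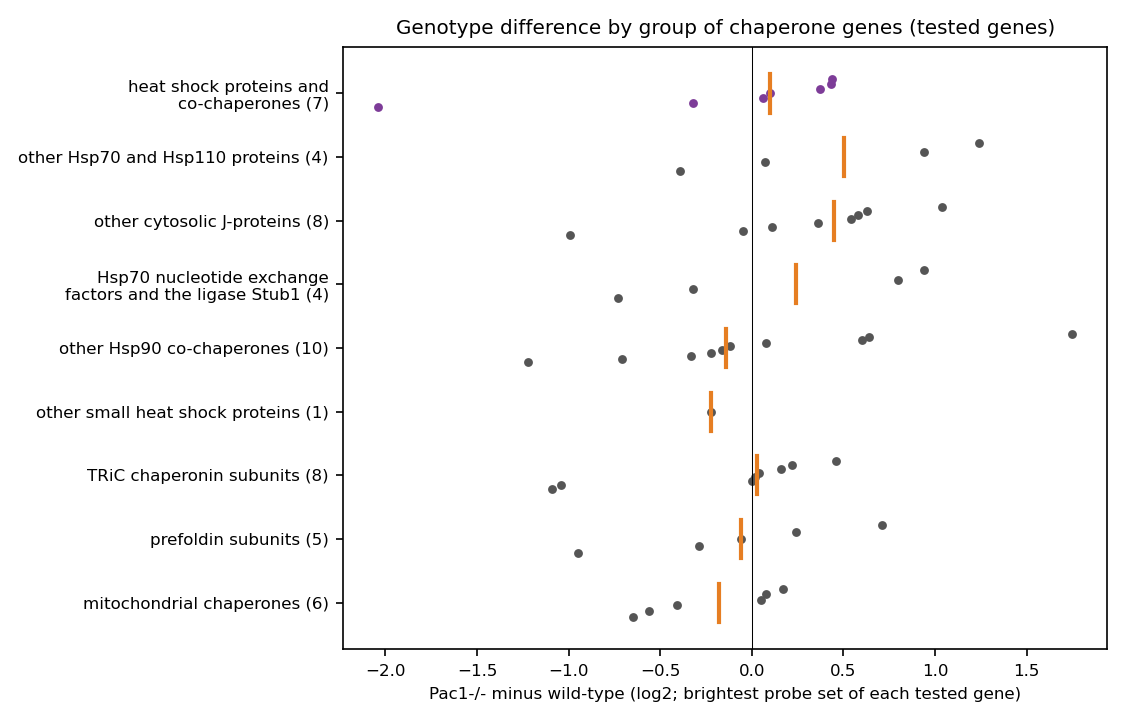
Log2 difference Pac1-/- minus wild-type for the brightest probe set of each tested gene, 1 point per gene, in the heat shock proteins and co-chaperones described here (purple, 7 genes) and in the other chaperone groups (grey), with the number of tested genes in brackets and the group median as an orange bar. Medians lie between -0.22 and 0.50, and Cdc37 at -2.04 and Unc45a at 1.75 are the outermost points.

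Around Hsp70, 3 of 4 other Hsp70 and Hsp110 genes were higher in Pac1-/- cells (median 0.50), as were 2802 of all 4998 tested genes. Hspa4, which encodes the Hsp110 relative Apg-2, read 1006.7 and 1528.8 in Pac1-/- cells and 569.9 and 737.3 in wild-type cells (0.94 ± 0.43, adjusted p = 0.866), and Hspa2, a testis-rich Hsp70, was at 1.24 ± 0.45. Of 8 other J-protein genes 6 were higher (median 0.45), with Dnajb4 at 1.04 ± 0.57 and Dnaja4 at -0.99 ± 0.51, while the other tested probe sets of Dnaja4 were at -1.50 and 0.65. Of the nucleotide exchange factors and the ubiquitin ligase Stub1, 2 of 4 were higher (median 0.24). Bag1, which releases Hsp70 substrates, read 1229.7 and 1573.0 in Pac1-/- cells and 771.2 and 686.1 in wild-type cells (0.94 ± 0.37, unadjusted p = 0.0696). Bag3, a heat-inducible relative, was at 0.80 ± 0.51.

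The chaperonin TRiC, which folds actin and tubulin, had 6 of 8 subunit genes above 0, a median of 0.03, and Cct6a at -1.09 ± 0.49 (0.31 by its other tested probe set) and Cct8 at 0.46 ± 0.50. Prefoldin, which feeds TRiC, had 2 of 5 above 0, a median of -0.06, and Vbp1 at 0.71 ± 0.38 and Pfdn1 at -0.95 ± 0.62. None of the genes named in these groups passed limma's adjusted test (0.866 or above for each). Of the heat shock factors, Hsf2 and Hsf4 were on the array under 1 symbol and neither was bright enough to test.

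Among the other small heat shock proteins 1 of 5 on the array was bright enough to test. This was Hspb8, a partner of Bag3, which read 519.4 and 28.6 in Pac1-/- cells and 1257.5 and 7.9 in wild-type cells. It had the order of Hspa1b, high in the replicate 1 cultures of both genotypes and low in the replicate 2 cultures. The gap was 4.18 log2 units in Pac1-/- cells and 6.30 in wild-type cells. Its replicate 2 readings lay near or below the floor of 16, so the gaps are approximate and cannot be compared between the genotypes. The genotype difference of Hspb8 was -0.22 ± 2.80 (limma adjusted p = 0.995). Bag3 did not have that order: its 4 arrays overlapped between the replicate numbers.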

How the data were processed

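RNA of 4 bone marrow-derived mast cell cultures, 2 Pac1-/- and 2 wild-type, was measured on 1 Affymetrix array each. What the authors deposited is 1 linear intensity for each probe set; the submitters' processing notes name MAS5. The RMA values of the series' design text were not used here. Of 22690 rows, 64 controls were left out, and 20380 of the remaining 22626 probe sets have 1 gene symbol, 691 several and 1555 none. All member symbols match RefSeq through the gene ID.

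Quantile normalisation of the 4 arrays came first, then a floor of 16, then log2. The 7770 probe sets with a mean of at least 100 were tested with limma 3.58.1 in R 4.3.3 (genotype only, two-sided, Benjamini-Hochberg threshold 0.05, 2 residual and 1.7 prior degrees of freedom), and 14856 were not tested. With 2 arrays a side an exact permutation test has no way to pass 0.05, so none was run. The cultures were independent per the series' design text, and the number of arrays limits the precision. The members and lists were chosen with earlier results of these data known. The members' probe sets were all named, and of each list the 2 tested genes with the lowest p. A gene with several probe sets was counted by its brightest. The fit was tested on simulated data. Alternatives were the values as deposited, median centring, no minimum or one of 200, a floor of 64, an intensity trend, a replicate block, each array left out, and the mean of a gene's probe sets.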

Additional observations from a re-analysis of the deposited data

How the results depend on the processing

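No setting gave an adjusted call: 0 probe sets had a limma adjusted p under 0.05 in any of the fits, with 79 (no wild-type replicate 2), 86 (no Pac1-/- replicate 2), 232 (no wild-type replicate 1) and 408 (no Pac1-/- replicate 1) at an unadjusted p under 0.05 when 1 array was left out. That count was 263 as reported, 1762 with no intensity minimum (more probe sets tested), 110 with a minimum of 200 (fewer tested) and 899 with the replicate number as a block. With that block 3 of the 15 tested heat shock protein probe sets were past the unadjusted test. These were Cdc37 1416819_at, Hsp90aa1 1437497_a_at and Dnajb1 1416756_at, all lower in Pac1-/- cells (lowest limma adjusted p 0.377). Of all 7770 tested probe sets 899 were past the unadjusted test with the block, 571 of them lower and 328 higher. The labels do not say that equal numbers share a source, and the block changed no adjusted call. The median over the 7 tested genes was 0.10, 0.82 with median centring (all tested probe sets: 0.69), -0.29 with the mean of a gene's probe sets, and -0.03 (no wild-type replicate 2) to 0.35 (no Pac1-/- replicate 2) with 1 array left out. Hspa8 1420623_x_at changed sign with median centring (0.53) and the untested Cdc37 1416820_at on the values as deposited (-0.25); the cause was not tested.

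With 1 array left out, where the lone array takes its spread from the other genotype and part of the replicate difference enters, 12 of 21 probe sets changed sign under at least 1 omission; the 2 tested Hspa1b probe sets were above 0 without Pac1-/- replicate 2 or wild-type replicate 1 and below 0 without either other array. The ranges of the 12 were -3.46 to 2.95 (Hspa1b 1427126_at), -3.67 to 3.03 (1452318_a_at), -1.48 to 1.11 (1427127_x_at), -0.18 to 1.20 (Hspa1a), -0.54 to 2.76 (Hspa8 1420622_a_at), -1.44 to 0.89 (1420623_x_at), -0.15 to 0.28 (Dnaja1 1416288_at), -0.51 to 0.70 (Dnajb1 1416755_at), -5.05 to 1.96 (Hsp90aa1 1426645_at), -0.03 to 0.90 (1438902_a_at), -0.26 to 0.74 (Cdc37 1416820_at) and -1.04 to 0.02 (Hspb1 1422943_a_at). Cdc37 1416819_at stayed between -2.76 and -1.33, past the unadjusted test in 1 of the 4 omissions (no Pac1-/- replicate 1), and Hsp90aa1 1437497_a_at between -3.68 and -1.66. Signal near background limits Hspa1a, Hspb1 and every replicate 2 reading of Hspa1b.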

Other observations

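The chaperones of mitochondria, several of which heat shock factor 1 also controls, showed no common direction between the genotypes. Of 6 tested genes the log2 difference was above 0 for 3 and below 0 for 3 (median -0.18), and 0 passed limma's adjusted test or the unadjusted one. Trap1, the Hsp90 of mitochondria, read 170.1 and 119.6 in Pac1-/- cells and 223.6 and 223.6 in wild-type cells (-0.65 ± 0.39, SE, n = 2 per genotype; adjusted p = 0.866), and Grpel1, the nucleotide exchange factor of mitochondrial Hsp70, was at -0.41 ± 0.39 (adjusted p = 0.877).

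Some partners of the heat shock proteins ran opposite to Hspa1b between the replicate numbers; the genes named here were chosen after their values were seen. St13, which encodes the Hsp70-interacting protein Hip, read 16.7 and 488.6 in Pac1-/- replicates 1 and 2 and 25.1 and 443.6 in wild-type replicates 1 and 2. Hspa14, an Hsp70 bound to ribosomes, read 30.4 and 597.7 in Pac1-/- cells and 44.5 and 373.4 in wild-type cells. Hspe1, the Hsp10 of mitochondria, read 36.9 and 925.4 in Pac1-/- cells and 79.9 and 928.2 in wild-type cells. The Hsp90 co-chaperones Stip1 and Fkbp4 ran with Hspa1b: Stip1 read 297.9 and 66.8 in Pac1-/- cells and 552.7 and 194.8 in wild-type cells, and Fkbp4 read 216.4 and 60.0 in Pac1-/- cells and 378.9 and 92.3 in wild-type cells. Of the 40 other tested cytosolic chaperone genes, 4 were higher in both replicate 1 cultures and 9 in both replicate 2 cultures, with the remaining genes overlapping. Of all 4998 tested genes, each also counted by its brightest probe set, these counts were 883 and 1145.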
